A study of Mus musculus with 6 samples.

Results

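The 36 genes described here encode lineage regulators of tissues other than T cells, among them 8 Pax genes, 5 Sox genes, 14 homeobox genes of other families, 4 basic helix-loop-helix genes, 2 forkhead genes, 2 GATA genes and a T-box gene. They were chosen by name and not by a measured value, although earlier results of these data were known. All 36 were found among 21951 protein-coding genes of the annotation. The question was which of their promoters were open in T helper cells, and whether the subsets differed. Naive CD4 T cells of wild-type (WT) C57BL6/J mouse spleen were cultured in vitro under Th9 conditions (IL-4, IL-2, TGF-β and anti-IFNγ), Th2 conditions (IL-4, IL-2 and anti-IFNγ) or Th17 conditions (IL-6, TGF-β, IL-23 and IL-1β, with antibodies to IFNγ, IL-4 and IL-2). Each subset had 2 libraries, replicate 1 and replicate 3, of ATAC-seq, in which the Tn5 transposase cuts and tags accessible DNA. No input control was used, and such cultures hold cells that have not taken on the intended subset, so each library is a mixture. The labels do not say that replicates came from separate animals, so the spread between the libraries of a subset may be technical.

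Regulators of this kind bind DNA and set the fate of embryonic tissues, and most are silent in mature lymphocytes. In cells that do not use them, their start sites often lie in long CpG islands covered by Polycomb proteins and the H3K27me3 mark, which hold a gene silent without always closing its DNA. An ATAC-seq peak at such a promoter therefore reports accessible DNA and not transcription, which was not measured here. Pax5, the commitment factor of B cells, is the member closest to the T lineage, since it acts in lymphocytes.

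A promoter reached from 1000 bp before an annotated start to 100 bp past it, for every start of the gene, and it was called open where a peak overlapped it by at least 1 bp. Its strength was the percentile, within that library's own list, of the fold enrichment of the strongest overlapping peak, and its width was the length of that peak. The sequences just upstream of 3 members are shown to set promoters with a peak beside a promoter without one. Neurog2 and Foxa1 had promoter peaks in all 6 libraries and were among the 3 strongest members, whereas Sox1 had none in any library and was among the 3 such members with the highest CpG content. Each was read from GRCm38, the assembly that mm10 displays, 5′ to 3′ on the strand of the gene, and capitals mark CG dinucleotides. The stretches are chr3:127632885-127633114 on the plus strand for Neurog2, chr12:57546122-57546371 on the minus strand for Foxa1 and chr8:12395045-12395294 on the plus strand for Sox1. All lie upstream of the annotated starts and outside annotated exons.
Neurog2: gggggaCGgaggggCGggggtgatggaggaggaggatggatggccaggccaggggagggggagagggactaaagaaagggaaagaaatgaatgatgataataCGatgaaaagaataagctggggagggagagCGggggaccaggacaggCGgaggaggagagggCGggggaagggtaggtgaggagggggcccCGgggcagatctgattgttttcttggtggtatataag
Foxa1: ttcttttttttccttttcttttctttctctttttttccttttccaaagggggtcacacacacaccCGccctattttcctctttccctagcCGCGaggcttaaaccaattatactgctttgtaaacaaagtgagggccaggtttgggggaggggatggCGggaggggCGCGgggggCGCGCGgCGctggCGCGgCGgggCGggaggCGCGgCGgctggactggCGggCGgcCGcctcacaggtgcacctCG
Sox1: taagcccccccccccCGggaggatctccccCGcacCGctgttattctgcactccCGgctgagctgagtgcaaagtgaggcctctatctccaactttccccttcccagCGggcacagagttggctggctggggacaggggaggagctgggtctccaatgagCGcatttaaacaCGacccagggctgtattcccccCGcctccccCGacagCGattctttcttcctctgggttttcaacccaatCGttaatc
The open Foxa1 stretch held 21 CG in 250 bases, the highest density of the 3. The open Neurog2 stretch held 7 in 230 bases, or 3.04 per 100 bases, fewer per base than the Sox1 stretch, without a peak, with 11 in 250 bases. Over 21938 genes the median was 9 CG in the 250 bases before the start, and 92.6% of these stretches held at least 1 CG. The number of CG alone thus did not separate the 2 promoters with a peak from the one without. Of the other members that the choice named, Lhx2 and Pax5 have only 18 and 43 bases of this stretch outside exons and are not shown.

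The lists held 100317 to 142213 peaks, and the lowest fold enrichment called ranged from 1.71 to 2.11. Read totals are not part of the peak lists, so depth was approached through the background coverage worked back from fold and p, which was 5.65 fragments in Th9 replicate 1 and 11.2 to 17.7 in the other libraries. Promoters of 7 of 8 CD4 T cell marker genes were open in all 6 libraries, and Cd4 itself in 4. Of 5 B cell genes none was open in all 6 and 3 were open in no library, and the same held for 5 myeloid genes. Open promoters alone did not mark a cell type, since both Cdh1 and Epcam of 3 epithelial genes, 2 of 3 endothelial genes, 2 of 4 erythroid genes, 1 of 4 fibroblast genes and 1 of 2 CD8 T cell genes were also open in all 6.

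Promoters of 15 of the 36 members (41.7%) were open in all 6 libraries, against 58.7% of all protein-coding genes. A further 13 members (36.1%) were open in 1 to 5 libraries, against 13.3% of all genes, and 8 (22.2%) were open in none, against 28.0%. With the lists as deposited, the members thus stood apart from the genome mainly in how often their calls varied between libraries. For comparison, 21 of 22 regulators that T cells use were open in all 6, and Id3 in 5. In the 38 relatives of the members from the same families, 15 (39.5%) were open in all 6, 13 in some and 10 in none, shares close to those of the members. With peaks held to a −log10 q of at least 5, 4 members were open in all 6, against 51.5% of all genes, and 19 in none. At a fold of at least 4, 1 member was open in all 6, against 40.7% of all genes, and 30 in none. The share of all genes open in none was not computed for these filters. In bulk samples a promoter open in few cells and one weakly open in all cells cannot be told apart.

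**Figure D1:**
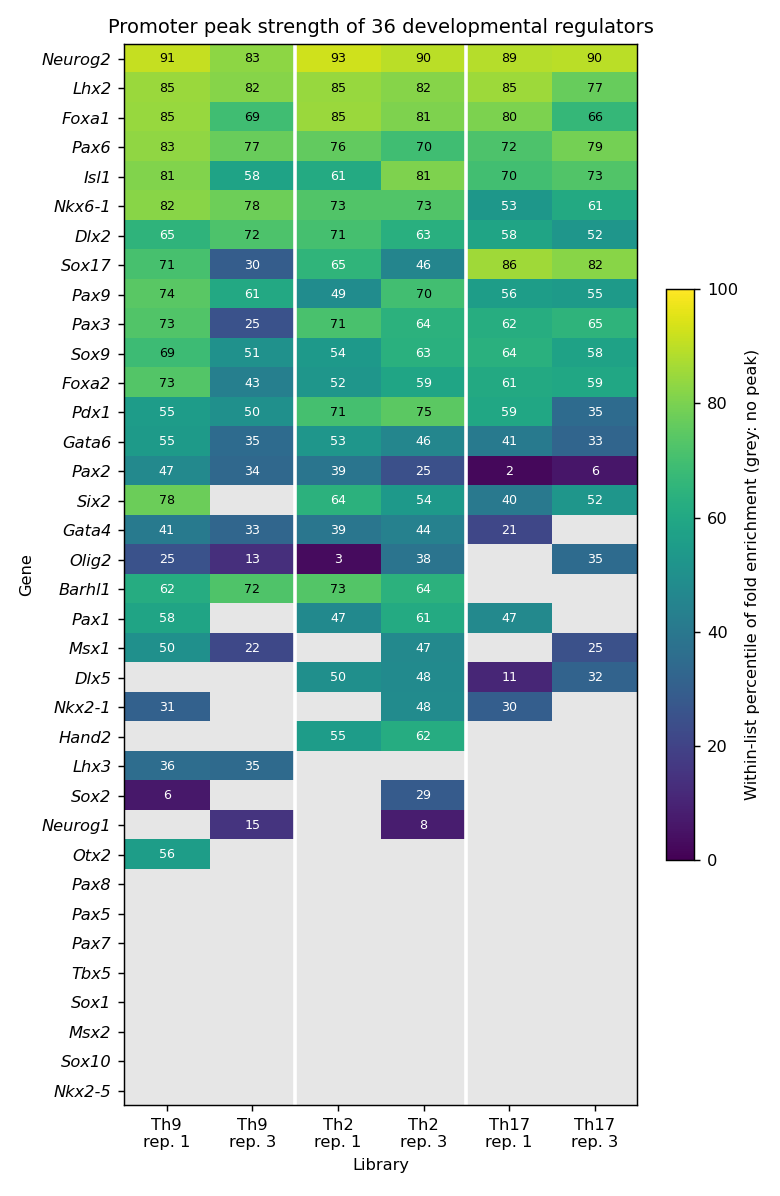
Within-list percentile of the fold enrichment of the strongest promoter peak for each of the 36 developmental regulators (rows) in each of the 6 libraries (columns), with white lines between subsets and grey cells where no peak overlapped the promoter. The upper 15 rows are filled in every library, 13 rows are filled in part and the lowest 8 are empty.

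Among the members open everywhere, the strongest were a proneural gene, a LIM homeobox gene and a forkhead gene. Neurog2, which drives progenitors to become neurons, lay at percentiles, replicate 1 before replicate 3, of 91.1 and 82.9 (Th9), 92.9 and 89.8 (Th2), and 88.8 and 89.8 (Th17). Its peak, 3029 to 4607 bp long, spanned the start in every library at a fold of 4.35 to 6.06. The gene lies at chr3:127633135-127635631, and the nearest start of any other gene was 59385 bp away. Lhx2, a LIM homeobox regulator of forebrain and eye, had percentiles of 85.1 and 81.8 (Th9), 84.6 and 81.7 (Th2), and 85.4 and 76.7 (Th17). Foxa1, a pioneer factor of liver and other endoderm (chr12:57540628-57546121), had 84.6 and 69.3 (Th9), 85.0 and 80.6 (Th2), and 80.5 and 66.5 (Th17). Replicate 1 was above replicate 3 in each subset for both Lhx2 and Foxa1, and in none of the 3 genes did a subset lie apart from the other libraries.

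Of the Pax genes, which carry a paired domain, Pax6, Pax9, Pax3 and Pax2 were open in every library. Pax6, the master regulator of eye development (chr2:105668900-105697364), had percentiles of 83.4 and 77.2 (Th9), 75.9 and 69.5 (Th2), and 72.0 and 79.0 (Th17). Its peak was the longest of the members, from 6522 bp in Th9 replicate 3 to 17440 bp in Th2 replicate 1, in a gene with 8 annotated starts. Pax9, which thymus, teeth and vertebrae require, had 74.3 and 60.5 (Th9), 48.5 and 69.6 (Th2), and 55.7 and 54.7 (Th17). The Th9 replicate 1 value of Pax9 came from a peak at its upstream start, chr12:56691430-56693014. The values of the other libraries came from peaks at its other start, such as chr12:56694722-56697397 in Th2 replicate 1. The Pax9 percentiles thus do not all measure the same peak. Pax3, of neural crest and muscle precursors, had 72.7 and 25.0 (Th9), 71.3 and 64.4 (Th2), and 62.5 and 65.0 (Th17). The Th9 libraries of Pax3 thus lay below and above all 4 others, while its peak was 1954 to 3055 bp long throughout. Pax2, a kidney regulator, was the weakest of the 15 with a mean percentile of 25.4, and its range is given with the subsets.

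The homeobox genes Isl1 and Dlx2 were also open in all libraries, as was the pancreatic regulator Pdx1. Isl1, of motor neurons and heart progenitors, had percentiles of 81.0 and 57.9 (Th9), 61.0 and 80.8 (Th2), and 69.7 and 73.0 (Th17). Its replicates in Th9 and Th2 differed by more than any subset means did, and the CpG ratio of its promoter, 0.910, was the highest of the 36 members. Dlx2, of forebrain interneurons and the face, had 65.2 and 71.9 (Th9), 70.5 and 63.2 (Th2), and 58.3 and 52.4 (Th17). Pdx1 had short peaks of 178 to 545 bp at the downstream edge of its promoter window, with percentiles of 34.9 to 74.9. They covered the annotated start in both Th2 libraries and Th17 replicate 1, and lay downstream of it in the others. With an overlap of at least 200 bp required, Pdx1 was called in no library.

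The remaining members open everywhere belong to the SOX, forkhead and GATA families. Sox9, which cartilage and testis need, had percentiles of 68.7 and 50.8 (Th9), 54.2 and 63.5 (Th2), and 63.6 and 57.7 (Th17). Foxa2, of endoderm and floor plate, had 73.1 and 43.1 (Th9), 52.5 and 59.0 (Th2), and 60.7 and 59.5 (Th17), with peaks of 3098 to 6636 bp. The Th9 libraries of both genes lay below and above the other 4. Gata6, of endoderm and heart, ranged from 32.7 to 54.6.

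Open promoters of the members were weak and long. The median over the 15 members of the mean percentile was 63.3, against 93.1 over the 12886 protein-coding genes open in all 6, 87.2 over the 21 T cell regulators and 64.6 over the 15 relatives. None of the 15 reached the median of all genes, Neurog2 alone exceeded that of the T cell regulators, and 4 exceeded the lowest T cell regulator, Tcf7, at 72.9. Of 133 member calls, 17 (12.8%) had a fold of at least 4, against 72.5% of the calls of all genes. These were 6 of Neurog2, 5 of Lhx2, 3 of Foxa1 and 1 each of Isl1, Pax6 and Sox17. The comparators that T cells use ranked higher, with mean percentiles of 94.1 for Ets1, 90.5 for Gata3, 88.5 for Runx1 and 83.3 for Bcl11b. Neurog2 at 89.2 and Lhx2 at 82.6 lay at or near that level.

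Their median peak width was 2390 bp, against 1477 bp over all genes, 2933 bp over the T cell regulators and 1738 bp over the relatives. Mean width was at least 2000 bp in 10 of 15 members and in 27.6% of all genes. The difference was also present at like strength. Between percentiles of 58.9 and 73.4, the middle range of the members, 7 members had a median width of 2056 bp and 911 genes had 1086 bp. Of the 133 calls, 119 (89.5%) had an annotated start inside the peak, and the middle of the peak lay downstream of the start in 96 (72.2%). No share over all genes was computed for these positions, so they cannot be read as particular to the members.

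**Figure D2:**
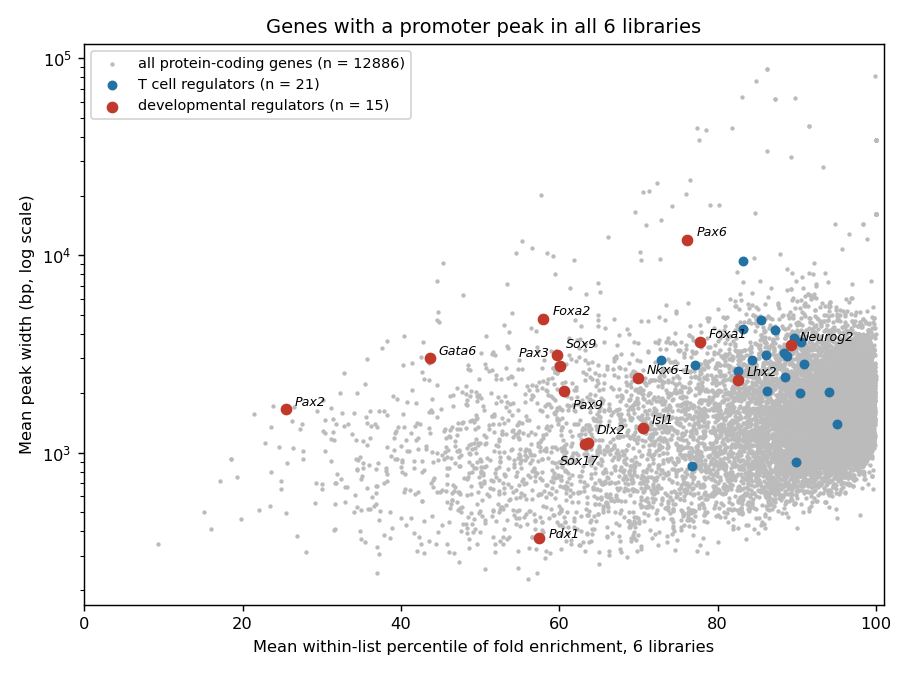
Mean peak width in bp (vertical, log scale) against mean within-list percentile of fold enrichment over 6 libraries (horizontal) for genes open in all 6 libraries, with 12886 protein-coding genes in grey, 21 T cell regulators in blue and 15 developmental regulators in red and named. The red points lie left of most grey points, all under the all-gene median of 93.1, and most lie high for their percentile.

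Between subsets, members were called less often in Th17. Th9 replicates 1 and 3 called 25 and 21 members, against 65.6 and 64.7% of all genes. Th2 called 22 and 26 members, against 65.5 and 66.9%, and Th17 called 20 and 19, against 63.8 and 62.4%. Per subset this was 23 ± 2.83 members in Th9, 24 ± 2.83 in Th2 and 19.5 ± 0.707 in Th17 (SD, n = 2), so that the Th17 libraries lay below the other 4 by a margin smaller than the spread within Th9 or Th2. All genes were also called least often in Th17. The relatives showed 22 and 22 (Th9), 19 and 25 (Th2), and 18 and 18 (Th17).

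Each gene open in all 6 libraries was tested by a two-sided exact permutation test of the spread between subsets, in which 6 libraries can be put into 3 pairs in 15 arrangements. The smallest p this design allows, 0.0667, cannot reach 0.05. Nkx6-1 alone reached it, 1 of 15 members (6.67%), against 13.8% of all genes. Nkx6-1, a regulator of pancreatic beta cells and ventral spinal cord at chr5:101658139-101664996, had percentiles of 82.4 and 77.9 (Th9), 72.8 and 72.7 (Th2), and 53.0 and 60.7 (Th17). The 3 subsets did not overlap, with 80.1 ± 3.14 in Th9, 72.7 ± 0.0728 in Th2 and 56.9 ± 5.41 in Th17 (SD, n = 2). In Th9 replicate 3 and Th17 replicate 1 its promoter peak was 1274 and 1067 bp long with a separate peak further downstream, where the other libraries had peaks of 2629 to 3591 bp. The separate peak in Th17 replicate 1, 1340 to 1868 bp downstream of the start, lay at a percentile of 74.9, above both Th2 values. The lack of overlap between Th2 and Th17 thus depends on which of these 2 peaks stands for the promoter. With 2000 bp on either side no member reached the smallest p, against 13.6% of genes open in all 6. At a −log10 q of 5 or more Nkx6-1 was called in 5 libraries and Neurog2 alone reached the smallest p, against 9.73%. Of the comparison lists, 4 of 21 T cell regulators (Myb, Irf4, Foxo1 and Tcf7) and 0 of 15 relatives reached the smallest p.

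Both Th17 libraries lay below the other 4 in Nkx6-1, Dlx2 and Pax2, 3 of 15 members, against 9.01% of all genes. Pax2 had percentiles of 47.1 and 33.9 (Th9), 38.7 and 24.6 (Th2), and 2.20 and 6.07 (Th17) (exact permutation p = 0.133). Its Th17 peaks began 703 and 890 bp downstream of its upstream start and met only the window of the other annotated start, whereas the peaks of the other 4 libraries covered the upstream start. Sox17, of endoderm and blood vessels, was the reverse and the only member with both Th17 libraries above the others, against 5.55% of all genes. It had 70.8 and 29.7 (Th9), 65.5 and 45.5 (Th2), and 85.6 and 82.4 (Th17) (exact permutation p = 0.333), so that its Th9 replicates differed by more than the subset means. The start of a noncoding gene, Gm37587, lay 120 bp from a Sox17 start, and a peak there cannot be assigned to either.

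Th9 lay above the other libraries in 1 member, Nkx6-1, against 17.6% of all genes, and below them in 0, against 7.37%. Th2 lay above in 1 member, Pdx1, against 8.91%, and below in 0, against 17.9%. Members with both Th9 or both Th2 libraries at an extreme were thus no larger a share, 6.67% or 0, than all genes.

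Called in both libraries of 1 subset and in no other library were 2 of 36 members, against 0.879% of all genes. Th9 and Th2 each had 1 of them, or 2.78% of members. Lhx3, a pituitary and motor neuron regulator (chr2:26200212-26208289), was called in both Th9 libraries and no other, a pattern of 0.269% of all genes. Its peaks were short, 249 and 272 bp, at percentiles of 35.8 and 34.5 and folds of 2.36 and 2.14, and the nearest peak in the other libraries was at least 17514 bp away. The noncoding gene Gm27196 starts 127 bp from an Lhx3 start. Hand2, of heart and limb (chr8:57320983-57324633), was called in both Th2 libraries and no other, a pattern of 0.383% of all genes, at percentiles of 55.4 and 62.0. These peaks were 4483 and 3570 bp long and ran across the start. The other 4 libraries had Hand2 peaks that began 468 and 660 bp downstream of the start in Th9 and 586 and 574 bp in Th17, beyond the window. Th9 replicate 1 also had a Hand2 peak at -1288 to -1103 bp from the start, just outside the window, at a percentile of 52.7. With 2000 bp on either side, Hand2 was open in all 6. The subsets thus differed in whether a peak met the window and not in whether one lay nearby. No member was called in Th17 alone, against 0.228% of all genes. These calls changed identity at a −log10 q of 5 or more, where Lhx3 was called in no library and Hand2 in Th2 replicate 3 alone, while Sox17 was called in both Th17 libraries only and Pdx1 in both Th2 libraries only. The Sox17 peak had a −log10 q of 21.7 and 20.2 in Th17 and of 2.24 to 4.85 in the other 4 libraries.

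Barhl1, of inner ear and cerebellum, was called in all but the Th17 libraries, a pattern of 0.847% of all genes, with percentiles of 62.0 and 72.4 in Th9 and 73.2 and 64.2 in Th2. Its peaks of 218 to 455 bp lay just downstream of the upstream start, and no Barhl1 call remained with an overlap of at least 200 bp. The Th17 libraries had no peak within the gene or 10 kb of it. Dlx5, of bone and face, was called in all but Th9, a pattern of 0.228% of all genes, at percentiles of 10.9 to 49.8. In Th9 replicate 1 a Dlx5 peak lay 196 bp from a start, at a percentile of 33.1, and with 2000 bp on either side Dlx5 was called there too, while in Th9 replicate 3 the nearest peak was 17250 bp away. No member was open in all but the Th2 libraries, against 0.041%.

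**Figure D3:**
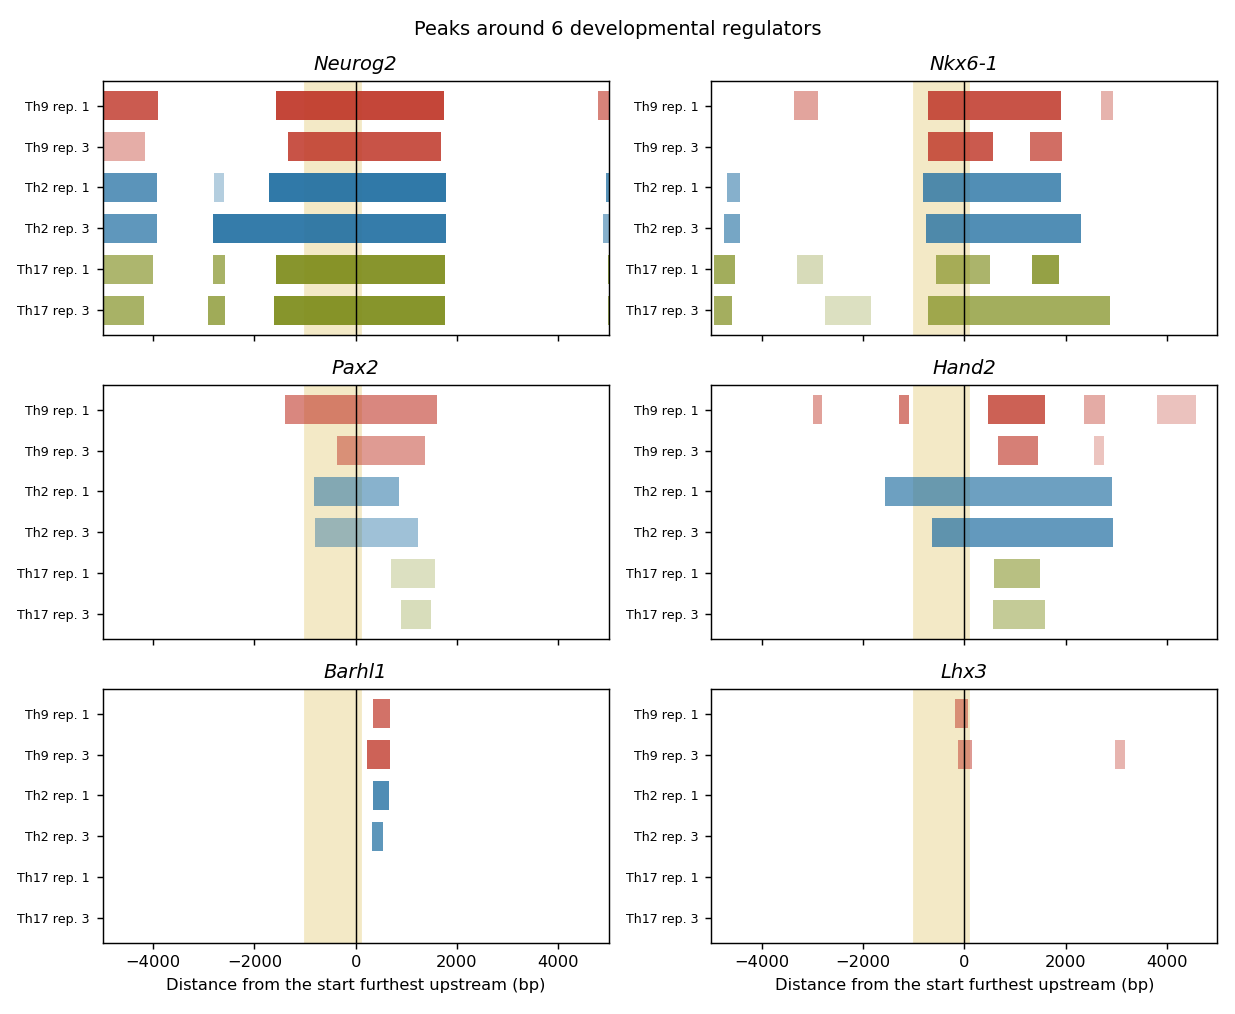
Peaks around the start furthest upstream (vertical line, distance in bp along the gene) of 6 developmental regulators in each library, with Th9 in red, Th2 in blue and Th17 in green, darker bars for higher percentiles and the promoter window of that start shaded. Neurog2 is covered in all 6, the promoter bars of Nkx6-1 and Pax2 are palest in Th17, the Hand2 bars cross the start only in Th2, and Barhl1 and Lhx3 have bars only in 4 and 2 libraries.

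The other members open in some libraries gave weak and scattered calls. Six2 (nephron progenitors), Gata4 (heart) and Olig2 (oligodendrocytes and motor neurons) were called in 5 libraries, with mean percentiles of 57.8, 35.7 and 23.0. Pax1 (vertebrae and thymus) and Msx1 (face and teeth) were called in 4, at 53.6 and 35.9, and Nkx2-1 (thyroid and lung) in 3, at 36.4. Sox2 (pluripotency and neural progenitors) and Neurog1 (sensory neurons) were each called in 1 Th9 and 1 Th2 library, at mean percentiles of 17.5 and 11.4. Otx2 (forebrain) was called in Th9 replicate 1 alone, with a peak of 274 bp. A missing call means only that no peak was detectable in that list at its depth, and not that the promoter was closed. For Six2, Pax1 and Nkx2-1, the nearest peak in a library without a call was at most 397, 208 and 209 bp from a start.

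No promoter peak was found in any library for Pax8 (thyroid and kidney), Pax5 (B cells), Pax7 (muscle stem cells), Tbx5 (heart and forelimb), Sox1 (neural progenitors), Msx2 (skull), Sox10 (glia and neural crest) and Nkx2-5 (heart). Most had peaks further off. Pax5 had 3 to 10 peaks in the gene and 10 kb on either side in every library, the nearest always 5549 to 5646 bp from a start, and it was called in all 6 when the starts of all annotated transcripts were used. Tbx5 had 1 to 7 peaks there, the nearest 452 to 3209 bp away. Sox1 had peaks 1329 to 1705 bp from its start in 5 libraries, and in Th2 replicate 1 the nearest lay 35395 bp away. Msx2 alone of the 36 had no peak in the gene or within 10 kb in any library, the nearest being 10774 to 82228 bp away. In all, 23 members had such a peak in every library, a count for which no share of all genes was computed.

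Some promoters of members lay near the start of another gene, though not of a protein-coding one where the member was called. None of the 28 members called in any library had the start of another protein-coding gene within 1100 bp. Starts of any other annotated gene lay that close to 7 of the 36 members. They included Hand2os1 at 124 bp from Hand2, Gm49154 at 80 bp from Otx2 and Gm26973 at 508 bp from Nkx2-1. No share of all genes was computed for these counts.

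CpG content, which the choice of members did not use, was high. Over the 1100 bp window at the upstream start, the median ratio of observed to expected CpG was 0.558 in members and 0.414 in all genes. A peak at any start counted as open, so the peak and the ratio can belong to different stretches. In Lhx2, with a ratio of 0.592 at its upstream start (chr2:38339281), the strongest peak in Th9 replicate 1 was chr2:38350367-38352428, at its other start. A promoter was counted as CpG-rich at a ratio of at least 0.6 and a GC content of at least 50%, which held for 13 of 36 members (36.1%) and 22.2% of all genes. Among CpG-rich promoters of all genes, 93.9% were open in all 6 libraries and 1.34% in none. Among the 13 CpG-rich members, 6 (46.2%) were open in all 6, 5 in some, and 2, Sox1 and Pax5, in none. All 12 CpG-rich T cell regulators and 8 of 14 CpG-rich relatives were open in all 6. At a ratio of at least 0.75 and a GC content of at least 55%, 3 members counted as rich and 1 of them, Isl1, was open in all 6, against 94.8% of such promoters.

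The median ratio of members was 0.592 where open in all 6, 0.581 where open in some and 0.313 where open in none. In all genes these medians were 0.574, 0.256 and 0.166. In the relatives they were 0.627, 0.561 and 0.462. Members and relatives with partial calls thus both had median ratios above that of all genes with partial calls.

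**Figure D4:**
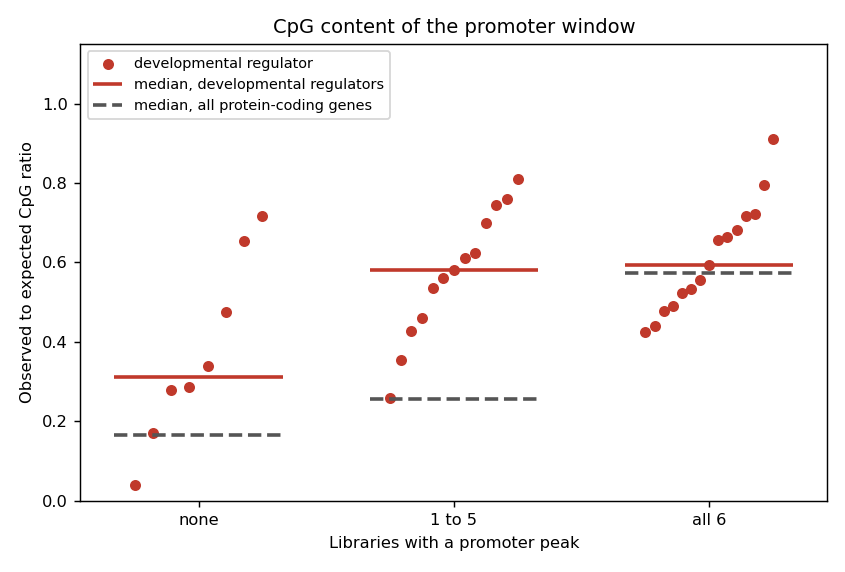
Ratio of observed to expected CpG in the 1100 bp promoter window (vertical) of each developmental regulator (red points, ordered by ratio within a class), by the number of libraries with a promoter peak (horizontal: none, 1 to 5, all 6). Solid red lines mark the medians of the members and dashed grey lines those of all protein-coding genes, which lie at 0.166, 0.256 and 0.574 from left to right.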

How the data were processed

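ATAC-seq peak lists of 6 libraries were used, 2 each of Th9, Th2 and Th17. Per the labels and methods, the authors trimmed reads (Trim Galore 0.4.3), aligned them to mm10 (Bowtie2), removed duplicates (Picard) and called broad peaks with MACS2 2.1.0 in each library, on whole fragments, against a genome-wide background, with no input. In this mode copy number and mapping can raise peaks. The Tn5 offset and the peak cutoff are not given in the sources used here. Each deposited list gave a display score, which was left aside, a fold enrichment (linear ratio) and the −log10 of p and of q, as the authors deposited them.

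Fold was turned into a percentile within its list, since folds of different lists rest on different backgrounds. Promoters reached from 1000 bp before to 100 bp past every start in the basic set of GENCODE M21 (GRCm38). Percentile, width and calls were computed in Python 3.11.15 (numpy 2.4.6, pandas 2.3.3, scipy 1.17.1), overlaps were checked with bedtools 2.31.1, sequences were read with pysam 0.24.0, and the steps were tested on simulated data. The background coverage of each list was solved from fold and p of its most frequent flat peak. The only test was the exact permutation test per gene, two-sided, and no p was adjusted, since none can reach 0.05. CpG ratios came from the assembly.

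The members, the comparison lists and the rules were chosen with earlier results of these data known. Values in every library are given for the 12 members open in all 6 with the highest mean percentile and for members called in both libraries of 1 subset alone. Per-library values of Pax2, Barhl1 and, in part, Pdx1, Gata6 and Dlx5 were added after they were seen. Alternatives were stricter peaks (−log10 q of at least 5, or fold of at least 4), lists of equal length (100317 peaks by −log10 p), promoters of 2000 bp on either side, an overlap of at least 200 bp, all annotated starts, the widest peak, a stricter CpG limit, each library left out and a replicate block. A sequence that the choice named is not reported here.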

Additional observations from a re-analysis of the deposited data

How the results depend on the processing

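Fewer members passed stricter filters. With −log10 q held to 5 or more, 4 members (Foxa1, Lhx2, Neurog2 and Pax6) were open in all 6 libraries, against 51.5% of all genes. Their medians were 48.4 for the percentile within the shortened lists and 3583 bp for the width. Th17 lay apart from the rest in 0 members, against 11.4% of genes open in all 6. A peak in the gene or 10 kb was present in every library for 9 members. The count in 1 subset alone was 2 as before, against 0.879% of all genes, but of other members. Sox17 in Th17 and Pdx1 in Th2 took the place of Lhx3 and Hand2. The count at the smallest p was 1 as before, against 9.73% of genes open in all 6, with Neurog2 in place of Nkx6-1. At a fold of at least 4, 1 member (Neurog2) was open in all 6, against 40.7% of all genes. Called in 1 subset alone were 0, against 0.952% of all genes. The smallest p was reached by 0, against 11.7% of genes open in all 6, and Th17 lay apart in 0, against 13.2%. A peak around was present for 2 members, and the medians were 37.7 for the percentile and 3529 bp for the width. These filters leave fewer peaks by construction. Lists of equal length lowered the median percentile to 56.2. With 2000 bp on either side, 20 members were open in all 6, against 62.8% of all genes. Called in 1 subset alone was 1 (Lhx3), against 1.04% of all genes, and 0 reached the smallest p, against 13.6% of genes open in all 6. At the stricter CpG limit 3 members and 7.32% of all genes were CpG-rich, where 13 members and 22.2% of all genes were before. The counts of peaks around members under stricter or equal lists were chosen after seeing the data, and no share of all genes was computed for them. The cause of these changes was not tested.

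Leaving out each library in turn gave 15 to 16 members open in all remaining libraries, 2 to 3 in 1 subset alone, medians of 60.6 to 64.5 for the percentile and 2256 to 2548 bp for the width, 1 to 2 members at the smallest p and 4 to 8 with Th17 apart. Members at the smallest p rose from 1 to 2 without Th9 replicate 1 or replicate 3 (with Foxa2) or Th17 replicate 1 (with Pdx1). Members with Th17 apart rose from 4 to 7 without Th9 replicate 3 (27.9% of all genes). They rose to 8 without Th17 replicate 1 (37.6%) and to 6 without Th17 replicate 3 (31.4%). The count was 5 without Th9 replicate 1 (19.6%) or Th2 replicate 1 (18.5%), and 4 without Th2 replicate 3 (20.7%). The cause of these changes was not tested.

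Deviations of same-numbered libraries from the subset means correlated only weakly, at 0.0976, 0.0578 and 0.0295. The lists did differ by replicate number. Replicate 1 held more peaks than replicate 3, with 142213 against 101102 (Th9), 142079 against 120198 (Th2) and 127073 against 100317 (Th17). Its background coverage was lower, at 5.65 against 12.1, 11.2 against 15.2 and 14.4 against 17.7 fragments. With the replicate block, 3 members (Foxa1, Nkx6-1 and Pax2) reached its smallest p of 0.167, against 29.4% of all genes. The members' median percentile stayed below that of all genes in each setting that computed both. With 2 libraries per subset, the exact permutation test could not reach 0.05, and a model-based test was not run.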
